A study of Mus musculus with 34 samples.

Results

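Glutathione and antioxidant genes were followed across 10 groups of mouse cells, pluripotent and somatic, fresh and cultured. Membership was decided by gene symbol alone. The members were all genes with a glutathione S-transferase symbol (Gsta, Gstk, Gstm, Gsto, Gstp, Gstt or Gstz), a glutathione peroxidase symbol (Gpx), a peroxiredoxin symbol (Prdx) or a symbol beginning with Txn, together with the superoxide dismutases, the subunits of glutamate-cysteine ligase (Gclc and Gclm), the metallothioneins Mt1 to Mt3, and Cat, Gsr, Gss, Hmox1 and Nqo1. Only probe sets that the platform annotation gives a single symbol were read, and the brightest of a gene's probe sets was used. In all, 50 of 8251 genes met this rule. Prdx1 was listed only in probe sets with several symbols, and no single-symbol probe set was found for Prdx5, Prdx6 or G6pdx, so these are not analysed here.

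Affymetrix expression arrays were used, and values are log2 units of signal. The pluripotent groups were the inner cell mass of E3.5 blastocysts of mixed sex, isolated by immunosurgery (ICM, 3 arrays), and male embryonic stem cells of passage 9 to 14 grown with LIF and serum (ESC, 2 arrays). Primordial germ cells, sorted as positive for an Oct4/GFP reporter, were taken at E11.5 without separating the sexes (4 arrays, called PGC E11.5) and at E13.5 from females (3 arrays, PGC E13.5 female) or from males (3 arrays, PGC E13.5 male). Male embryonic germ cells of passage 19, derived from E12.5 germ cells and kept with LIF and serum, completed that side (EGC, 3 arrays). The somatic groups began with cells of the gonad and mesonephros at E11.5 that were sorted as Oct4/GFP negative (SGM, mixed sex, 4 arrays). Embryonic fibroblasts from E13.5 had been grown in serum to passage 2 (MEF, mixed sex, 6 arrays). Neural stem cells came from the subventricular zone of mice aged 8 weeks and were grown with EGF as neurospheres of passage 1 (NSC, mixed sex, 2 arrays). Haematopoietic stem cells were sorted from the marrow of male mice aged 8 weeks as side population cells that were Lin- and CD34- and carried Sca-1 and c-Kit (HSC, 2 arrays). All mice were C57Bl/6 except the ICM donors, where 2 arrays came from a C57Bl/6 x C3H F1 background and 1 from that F1 crossed with CD1. The labels call the replicates biological, and do not say how many lines the ESC and EGC arrays represent. No group was exposed to an oxidant, a metal or a drug, and the donor cells of the EGC lines (E12.5) were not themselves a group.

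Levels of defining genes were set against the labels. The mean of 7 pluripotency genes lay between 10.3 and 11.4 in the 6 pluripotent groups and between 6.0 and 7.1 in the somatic groups, although Sox2 was at 12.01 in NSC. Fibroblast genes averaged 12.95 in MEF, neural genes 9.97 in NSC and haematopoietic genes 7.75 in HSC, while Gfap, Vim, Ptprc and Mecom were flat over all groups. The mean of 6 germ cell genes was 9.01 in PGC E11.5 and 8.33 in PGC E13.5 female, but 7.85 in PGC E13.5 male, below ICM (8.21) and ESC (8.16). In that list Ddx4 was at 5.30 in PGC E13.5 male against 6.41 in ESC, and Kit was highest in HSC at 9.69. Genes of the gonad and mesonephros soma averaged 8.39 in SGM and at most 6.82 elsewhere, although Gata4 and Lhx9 were flat. In the SGM the sort left other cell types: 7 erythroid genes averaged 10.22 there against 7.32 in PGC E11.5. ICM arrays carried trophectoderm genes, mainly Eomes, Krt18 and Krt8 (mean of 6 genes 8.47, against 6.93 in ESC). HSC arrays had the highest summed log2 level of 6 macrophage genes, 44.9 to 45.5 against at most 40.0 elsewhere (MEF). Mainly Lyz2 (9.15) and Tyrobp (8.84) carried it. Csf1r (7.05) and Adgre1 (6.44) were little above SGM (6.90 and 6.17). Cd68 was higher in MEF (7.63 against 7.55 in HSC) and Fcer1g in PGC E13.5 male (6.34 against 6.14). PGC E11.5 replicate 4 stood apart from the other arrays of its group in 5 members (Gpx4, Gstk1, Gsto1, Txn2 and Txndc12). In these bulk samples, fewer cells of a type and less RNA per cell cannot be told apart.

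Glutathione is a tripeptide that keeps cellular thiols reduced. Glutamate-cysteine ligase makes its precursor in the rate-limiting step, glutathione synthetase (Gss) completes it, and glutathione reductase (Gsr) regenerates it with NADPH. Glutathione S-transferases couple it to electrophiles and glutathione peroxidases use it to reduce peroxides, while superoxide dismutases, catalase, peroxiredoxins and the thioredoxin system remove oxidants by parallel routes. Metallothioneins bind zinc and copper through cysteines, and their transcription is switched on by the zinc sensor MTF1 at metal response elements (MRE), and many thiol genes are switched on by NRF2 at antioxidant response elements (ARE).

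The promoters of 4 members on which the results turn are given first, because Mt1, Mt2 and Txnrd1 had the largest rises from fresh to cultured cells and Gclm the largest rise from ICM to ESC, and because they hold matches to these elements. Each is the 250 bases before the RefSeq start in assembly GRCm38.p6, 5′ to 3′ on the plus strand, with the letters of every match to either element in capitals. The MRE core was searched as TGCGCNC or TGCACNC and the ARE core as TGACNNNGC, on both strands. Mt1 lies at chr8:94178839-94179088, Mt2 at chr8:94172368-94172617, Txnrd1 at chr10:82858956-82859205 (1 of 3 listed starts) and Gclm at chr3:122245307-122245556.
Mt1: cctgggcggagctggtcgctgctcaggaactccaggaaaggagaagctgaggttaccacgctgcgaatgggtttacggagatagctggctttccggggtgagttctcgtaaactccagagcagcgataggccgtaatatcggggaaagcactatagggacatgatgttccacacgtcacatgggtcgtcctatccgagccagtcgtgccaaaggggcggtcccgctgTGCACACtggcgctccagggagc
Mt2: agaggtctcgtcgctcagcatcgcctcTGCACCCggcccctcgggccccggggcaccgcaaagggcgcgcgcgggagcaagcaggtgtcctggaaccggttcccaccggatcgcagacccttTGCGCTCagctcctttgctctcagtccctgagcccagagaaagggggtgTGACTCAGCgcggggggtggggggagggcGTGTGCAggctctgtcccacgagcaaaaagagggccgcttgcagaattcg
Txnrd1: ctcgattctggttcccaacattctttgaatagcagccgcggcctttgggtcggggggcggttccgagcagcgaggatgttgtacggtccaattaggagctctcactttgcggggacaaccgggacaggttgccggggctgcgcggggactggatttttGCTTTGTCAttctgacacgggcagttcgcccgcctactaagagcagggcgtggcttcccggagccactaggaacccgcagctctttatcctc
Gclm: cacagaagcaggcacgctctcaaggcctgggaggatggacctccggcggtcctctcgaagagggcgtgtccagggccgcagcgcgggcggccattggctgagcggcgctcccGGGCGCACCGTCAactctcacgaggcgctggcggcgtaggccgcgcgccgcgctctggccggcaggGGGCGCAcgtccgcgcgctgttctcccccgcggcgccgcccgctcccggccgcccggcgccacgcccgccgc
In this window Mt1 held 1 match to the MRE core and 0 to the ARE core. Mt2 held 3 MRE matches and 1 ARE match. Txnrd1 held 1 ARE match and 0 MRE matches at the start shown, which was chosen because it held a match. The windows of its other listed starts held 0 matches to either element. Gclm held 2 MRE matches and 1 ARE match, and its ARE match overlaps an MRE match by 3 bases. The 42 members in the promoter table have 53 promoters, of which 13 (24.5%) had an MRE match and 7 (13.2%) an ARE match. Over all 32851 promoters of the same length the shares were 21.4% and 10.2%. A match is a string of letters, and binding was not measured. Sequence past the listed start was not searched, so these counts need not be all the matches near a gene's start.

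Across the 10 groups the members varied about as much as other genes. The median distance between a gene's highest and lowest group mean was 1.54 log2 units for members and 1.30 for all genes tested, and it exceeded 1 in 34 members (68%) against 60.7% of all genes. limma's F test over groups passed in 49 members (98%), against 97.1% of all genes. The widest ranges belonged to Gsta4 (4.49), Gsto1 (4.27), Gsr (3.86), Mt2 (3.43), Gclm (3.21) and Mt1 (3.18). By role, the median range was 3.18 for the 3 metallothioneins, 2.42 for the 4 genes of glutathione synthesis and recycling, 1.80 for the 15 transferases and 0.78 for the 6 glutathione peroxidases. A range under 1 was found in 16 members: Cat, Gpx1, Gpx2, Gpx3, Gpx5, Gss, Gsta1, Gsta2, Gsta3, Gstm2, Hmox1, Mt3, Sod3, Txn2, Txndc9 and Txnrd3. On another probe set the range was 2.14 for Cat and 1.68 for Gstm2. EGC and HSC each held the highest mean of 9 members, and NSC held the lowest of 11 and HSC of 9.

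**Figure D1:**
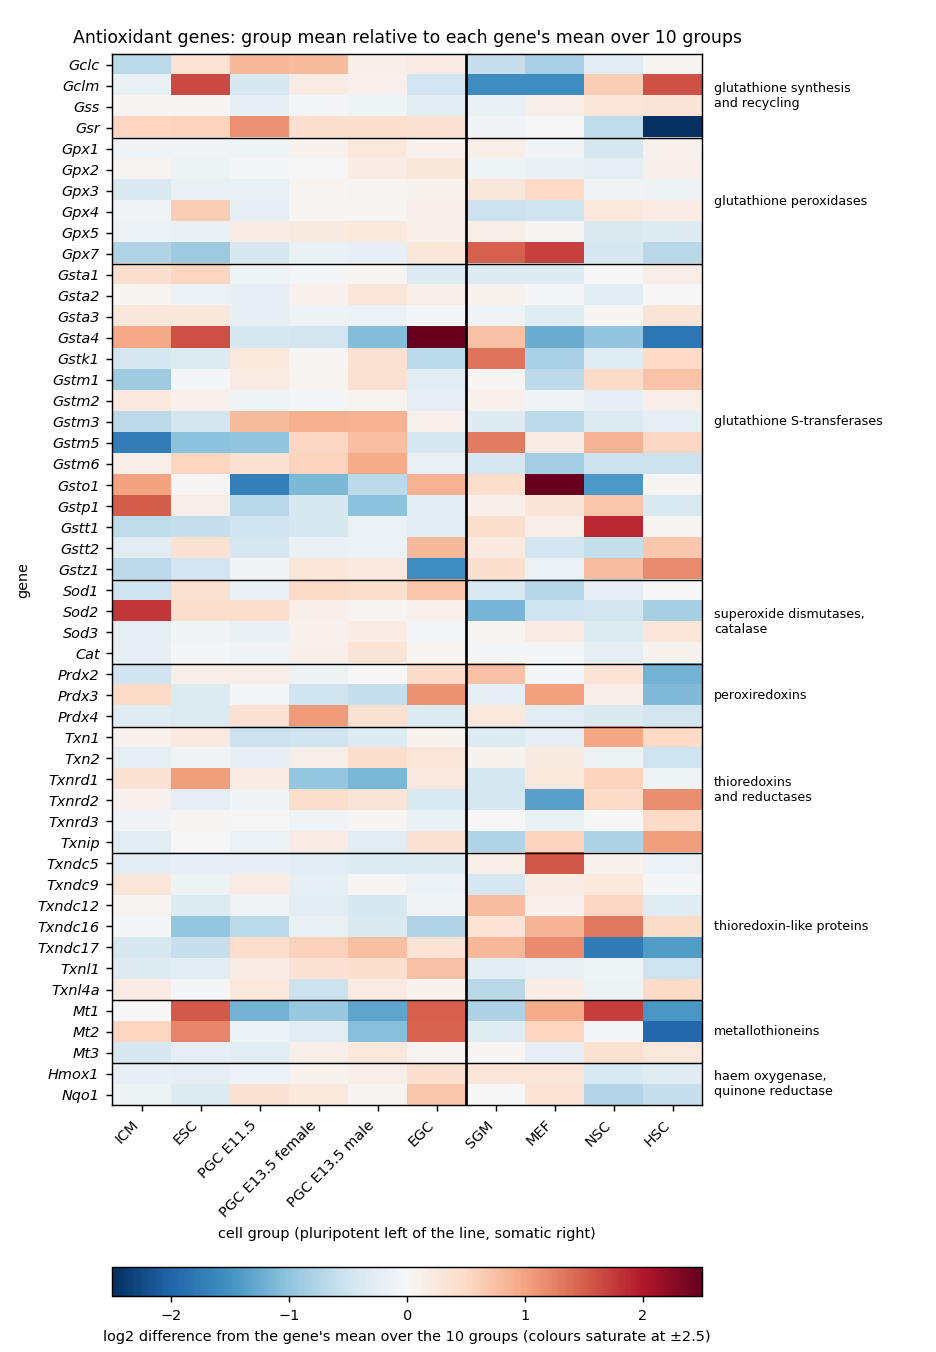
Heat map of the 50 members, grouped by role, over the 10 cell groups. The colour is the group mean minus the mean of the 10 group means of that gene, in log2 units. Gsta4, Gsto1, Gsr, Mt1, Mt2 and Gclm show the widest swings, and 16 members stay within 1 log2 unit.

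Counts of members called (limma, adjusted p under 0.05 over all 8251 genes) were read against the share of all genes called the same way. Pluripotent groups, taken as a mean of 6 group means, had 17 members (34%) higher and 15 (30%) lower than the mean of the 4 somatic groups, where 29.1% and 34.9% of all genes were called. PGC E11.5 had 13 (26%) higher and 19 (38%) lower than SGM, against 23.2% and 26.9%. From E11.5 to E13.5, 11 members were higher and 4 lower in female germ cells (all genes 16.3% and 15.2%). In male germ cells 16 were higher and 7 lower (31.7% and 20.7%), a split that became 11 to 10 when arrays were centred on their medians and 20 to 5 with quantile normalization. Both E13.5 comparisons share the PGC E11.5 arrays. Between the E13.5 sexes 4 were higher and 1 lower in females (6.29% and 2.33%). Whether the share of members called differs from that of all genes was not tested, and the members that moved are described below by role.

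In the cultured lines, ESC had 11 members higher and 5 lower than ICM (all genes 15.3% and 12.6%). EGC had 14 (28%) higher and 9 (18%) lower than PGC E13.5 male (14.8% and 15.9%), a split that turned to 12 higher and 18 lower with quantile normalization. MEF had 13 higher and 17 lower than SGM (22.2% and 27.6%). Over the mean of these 3 pairs, cultured cells had 15 higher and 10 lower than fresh cells (19.5% and 22.6%), or 13 and 15 with quantile normalization. NSC had 14 higher and 15 lower than the mean of the other somatic groups (28.1% and 30.8%). HSC had 20 higher and 19 lower (36.8% and 27.6%), or 12 and 20 with arrays centred. The ESC minus ICM difference exceeded the EGC minus PGC E13.5 male difference in 12 members and fell short of it in 10 (18.3% and 14.2%), or 9 and 13 with arrays centred. Median differences over members stayed between -0.08 and 0.17 in the 12 comparisons, and over all genes between -0.08 and 0.15.

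Mt1, a metallothionein, stood high in cultured cells. It was 10.72 and 10.82 in ESC, 10.91, 10.63 and 10.67 in EGC, and 10.98 and 10.96 in NSC, and in MEF it ran from 9.98 to 10.68 with a median of 10.08. In fresh cells Mt1 was 9.26, 10.23 and 8.26 in ICM, 7.71, 8.18, 7.96 and 8.36 in PGC E11.5, 8.13, 8.62 and 8.13 in PGC E13.5 female, then 7.65, 8.04 and 8.09 in PGC E13.5 male. It was 8.46, 8.29, 8.22 and 8.92 in SGM and 8.24 and 7.34 in HSC. Every array of ESC, EGC, NSC and MEF thus lay above every fresh array except 1 of ICM. Mt1 was 7.01-fold higher in EGC than in PGC E13.5 male (log2 difference 2.81 ± 0.30 SE, adjusted p 4.14e-08), 3.25-fold higher in MEF than in SGM (1.70 ± 0.24, adjusted p 7.58e-07) and 2.87-fold higher in ESC than in ICM (1.52 ± 0.34, adjusted p 0.00124). The ESC and ICM arrays of Mt1 did not overlap, but the difference passed no test when only these 2 groups were fitted (adjusted p 0.102), and it ran from 1.03 to 2.01 as single arrays were left out. Relative to the other somatic groups Mt1 was 4.46-fold higher in NSC (2.16 ± 0.29, adjusted p 3.08e-07) and 4.22-fold lower in HSC (-2.08 ± 0.29, adjusted p 4.49e-07), where it overlapped SGM. In the order of group means, NSC, ESC, EGC and MEF did not differ from neighbour to neighbour, MEF exceeded ICM, ICM exceeded SGM, and no neighbours below SGM differed.

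Mt2, next to Mt1 on chromosome 8 and regulated by the same metal sensor, was also higher in EGC than in PGC E13.5 male, with more spread among fresh arrays. Mt2 was 13.43, 13.36 and 13.28 in EGC and 9.86, 11.16 and 11.45 in PGC E13.5 male. It was 11.33, 11.81, 11.40 and 12.39 in PGC E11.5, 11.04, 12.35 and 11.44 in PGC E13.5 female, 12.61, 13.06 and 11.59 in ICM and 13.02 and 13.18 in ESC. Among somatic groups Mt2 was 11.42, 11.40, 11.20 and 12.32 in SGM, 12.24 to 12.72 (median 12.39) in MEF, 11.77 and 11.90 in NSC and 10.53 and 9.32 in HSC. Groups were clearly apart for EGC over PGC E13.5 male and for HSC below the other somatic groups, while ESC and ICM overlapped. Mt2 was 5.80-fold higher in EGC than in PGC E13.5 male (2.54 ± 0.38, adjusted p 9.1e-06), 0.84 log2 units higher in MEF than in SGM (adjusted p 0.0231, lost without SGM replicate 1, 2 or 3 at 0.71 to 0.78, and with quantile normalization at 0.40, adjusted p 0.375) and 4.06-fold lower in HSC (-2.02 ± 0.37, adjusted p 2.55e-05). On average it was higher in pluripotent than in somatic groups by 0.73 ± 0.18 (adjusted p 0.000849). The fall of Mt2 from PGC E11.5 to PGC E13.5 male (-0.91 ± 0.36, adjusted p 0.0364) rested on overlapping arrays. It passed no test without male replicate 1 (-0.43, adjusted p 0.341), without PGC E11.5 replicate 2 (-0.88) or 4 (-0.69), with quantile normalization (-0.58), or with the replicate number as a block (-0.74, adjusted p 0.0776). Mt3, best known from brain, ranged over 0.78 log2 units between groups and was lower in MEF than in SGM (-0.26, adjusted p 0.00201).

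**Figure D2:**
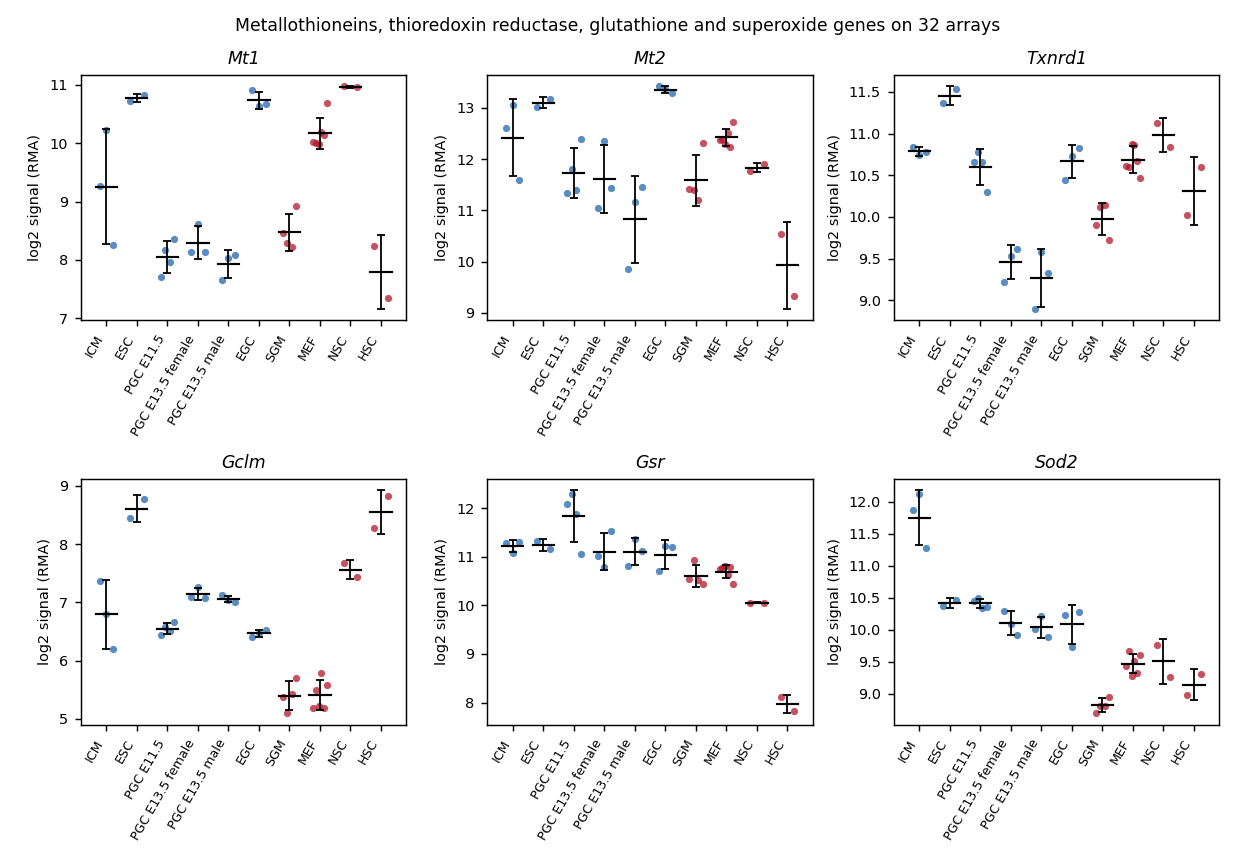
Log2 signal of Mt1, Mt2, Txnrd1, Gclm, Gsr and Sod2 on each of the 32 arrays, by group. Points are arrays, blue for pluripotent and red for somatic groups, the bar is the group mean and the whisker 1 SD. Mt1 separates ESC, EGC, MEF and NSC from the fresh groups other than ICM, and Gsr is lowest in both HSC arrays.

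Among the genes of glutathione synthesis, both ligase subunits were higher in PGC E11.5 than in SGM. Gclc, the catalytic subunit, was 9.40, 9.44, 9.51 and 9.27 in PGC E11.5 and 7.86, 7.98, 8.35 and 7.93 in SGM. Gclm, the modifier subunit that raises the enzyme's activity, was 6.44, 6.58, 6.51 and 6.67 in PGC E11.5 and 5.38, 5.09, 5.42 and 5.70 in SGM. Neither subunit overlapped between these groups, and Gclc was 2.59-fold (1.38 ± 0.14, adjusted p 3.25e-09) and Gclm 1.15 ± 0.17 log2 units (adjusted p 2.22e-06) higher in the germ cells. Gclc was 9.35, 9.27 and 9.57 in PGC E13.5 female against 8.85, 8.73 and 8.64 in PGC E13.5 male, without overlap. The sex difference in Gclc was 1.58-fold (0.66 ± 0.16, adjusted p 0.00914) and passed no test without female replicate 3 (0.57, adjusted p 0.0717) or male replicate 3 (0.61, adjusted p 0.0548).

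Gclm stood highest in ESC and HSC. It was 8.44 and 8.77 in ESC, 8.28 and 8.82 in HSC, 7.68 and 7.44 in NSC, and 7.38, 6.81 and 6.20 in ICM. Gclm was 7.09, 7.26 and 7.08 in PGC E13.5 female, then 7.12, 7.05 and 7.01 in PGC E13.5 male, 6.40, 6.48 and 6.52 in EGC, and 5.19 to 5.79 (median 5.35) in MEF. ESC exceeded every ICM array and EGC lay below every male germ cell array, so the cultured line was higher in one pair and lower in the other. Gclm was 3.51-fold higher in ESC than in ICM (1.81 ± 0.22, adjusted p 5.66e-07) and lower in EGC than in PGC E13.5 male by a log2 difference of -0.59 (adjusted p 0.05 to 0.0729 without male replicate 1 or 2 or any single EGC array), and the difference between these differences was 2.40 ± 0.30 (adjusted p 7.8e-07). Gclc, which was 8.83 and 9.07 in ESC and 7.49, 8.53 and 7.78 in ICM, was 2.03-fold higher in ESC (1.02 ± 0.18, adjusted p 0.000122), but not when only those groups were fitted (adjusted p 0.077). Against the other somatic groups Gclm was 5.38-fold higher in HSC (2.43 ± 0.19, adjusted p 9.87e-12) and 2.16-fold higher in NSC (1.11 ± 0.19, adjusted p 1.39e-05), whose arrays fell below those of HSC.

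Gsr, which returns oxidised glutathione to its reduced form, was higher in the pluripotent than in the somatic mean and lowest in HSC. In pluripotent groups Gsr was 11.28, 11.08 and 11.31 in ICM, 11.33 and 11.16 in ESC, 12.08, 12.30, 11.88 and 11.06 in PGC E11.5, 11.00, 10.78 and 11.53 in PGC E13.5 female, then 10.81, 11.37 and 11.13 in PGC E13.5 male and 10.70, 11.22 and 11.21 in EGC. In somatic groups Gsr was 10.55, 10.94, 10.51 and 10.44 in SGM, 10.44 to 10.80 (median 10.75) in MEF, 10.05 and 10.06 in NSC and 8.11 and 7.83 in HSC. HSC arrays lay more than a log2 unit below all others, whereas some pluripotent arrays overlapped SGM and MEF. The pluripotent mean of Gsr was 2.69-fold above the mean of the 4 somatic groups (1.43 ± 0.10, adjusted p 1.32e-12), and 0.61 log2 units above it without NSC and HSC (adjusted p 3.43e-05). PGC E11.5 was 2.33-fold higher than SGM (1.22 ± 0.19, adjusted p 3.95e-06, or 1.48 without replicate 4) and HSC was 5.59-fold lower than the other somatic groups (-2.48 ± 0.21, adjusted p 4.69e-11). The part of the macrophage signal in the HSC values was not tested. Gsr was 1.66-fold lower at E13.5 than at E11.5 in both sexes (-0.73 ± 0.21 each, adjusted p 0.0079 in females and 0.00536 in males), with overlap through PGC E11.5 replicate 4, and the female value passed no test without female replicate 2 (-0.56, adjusted p 0.0774). These falls passed no test when only the compared groups were fitted (adjusted p 0.103 and 0.0502), and without replicate 4 both were -0.98. With quantile normalization the female fall was -0.47 (adjusted p 0.0492) and the male fall -0.34, which passed no test (adjusted p 0.127). Gss, the synthetase, stayed within 0.58 log2 units over the groups. Its probe sets opposed each other: in MEF minus SGM the brighter gave 0.32 and the other -0.26, and in pluripotent minus somatic -0.24 and 0.15, all called.

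Of the 15 glutathione S-transferases, 2 were higher and 9 lower in PGC E11.5 than in SGM, where 23.2% and 26.9% of all genes were called. In MEF 1 transferase was higher and 10 were lower than in SGM, against 22.2% and 27.6% of all genes. Gstm5, a mu-class enzyme, was 12.90, 12.59, 12.58 and 12.79 in SGM and 10.36, 10.16, 10.15 and 11.03 in PGC E11.5. Gsto1, an omega-class enzyme that acts as a thiol transferase, was 11.13, 11.03, 11.10 and 10.96 in SGM and 8.69, 8.62, 8.66 and 9.68 in PGC E11.5. The groups were well apart in both genes, and replicate 4 was the germ cell array nearest to SGM. In the germ cells Gstm5 was 4.90-fold lower (-2.29 ± 0.16, adjusted p 1.06e-12) and Gsto1 4.41-fold lower (-2.14 ± 0.19, adjusted p 1.78e-10), and without replicate 4 the differences were -2.49 and -2.40. The other 3 probe sets of Gstm5 gave -3.59, -0.99 and -0.19 for this difference, the last not called (adjusted p 0.0706). Beside these values, the summed log2 level of the 7 erythroid genes ran from 69.8 to 73.5 over SGM arrays and from 48.2 to 55.9 over PGC E11.5 arrays, and that of 5 endothelial genes from 36.6 to 37.4 and from 31.2 to 32.8. Over MEF arrays the erythroid sum was 45.9 to 47.3. Their part in the transferase differences was not tested. Gstm3 (1.13) and Gstm6 (0.79) were the transferases higher in the germ cells.

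Both Gstm5 and Gsto1 were higher again at E13.5. Gstm5 was 12.29, 11.89 and 11.61 in PGC E13.5 female against 12.15, 12.18 and 12.14 in PGC E13.5 male, above all E11.5 arrays. Gsto1 was 9.57, 9.71 and 9.23 in females and 10.13, 9.92 and 9.88 in males, where the E11.5 replicate 4 overlapped the females. Gstm5 was 2.85-fold higher in females (1.51 ± 0.17, adjusted p 2.47e-07) and 3.32-fold higher in males (1.73 ± 0.17, adjusted p 2.99e-08) than at E11.5. Gsto1 was 2.08-fold higher in males (1.06 ± 0.20, adjusted p 0.000171) and 0.59 log2 units higher in females, where the call was lost without PGC E11.5 replicate 1, 2 or 3 or female replicate 1 or 2 (0.48 to 0.56). Without PGC E11.5 replicate 4 the Gstm5 differences were 1.71 and 1.93, and that of Gsto1 in males was 1.31. Beside these values, the mean of the 7 fibroblast genes ran from 7.87 to 8.28 over PGC E11.5 arrays, from 8.22 to 8.46 over female and from 8.44 to 8.69 over male E13.5 arrays. Dcn, one of these, was 6.79 at E11.5 against 7.59 in females and 8.49 in males at E13.5. Postn (6.24 against 6.36 and 6.15) and Lum (6.19 against 6.20 and 6.48) moved less. The 7 erythroid genes averaged 7.32 against 7.70 and 7.88. Among them Hba-a1 was 7.99 against 9.29 and 9.83, but Hba-x was 7.18 against 7.33 and 7.17 and Epor 6.62 against 6.62 and 6.72. Their part in the Gstm5 and Gsto1 differences was not tested. Between the E13.5 sexes, Gstp1, the pi-class enzyme, was 8.59, 8.76 and 8.56 in females and 8.10, 8.08 and 7.84 in males. These arrays did not overlap and the difference was 1.54-fold (0.63 ± 0.18, adjusted p 0.0289), yet it passed no test without any 1 of 5 of the 6 arrays (all but male replicate 1), with values of 0.54 to 0.67.

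Gsta4, an alpha-class enzyme that conjugates the lipid peroxidation product 4-hydroxynonenal, had the largest difference of any member. Gsta4 was 11.36, 11.30 and 11.46 in EGC and 7.52, 7.51 and 7.79 in PGC E13.5 male. It was 10.32 and 10.28 in ESC, 9.64, 9.96 and 9.33 in ICM, 8.19, 8.49, 8.15 and 8.33 in PGC E11.5 and 8.22, 8.54 and 7.91 in PGC E13.5 female. In somatic groups Gsta4 was 9.61, 9.12, 9.41 and 9.54 in SGM, 6.94 to 7.88 (median 7.53) in MEF, 7.80 and 7.58 in NSC and 7.01 and 6.76 in HSC. It was therefore high in the cultured pluripotent lines and low in cultured fibroblasts. Gsta4 was 13.6-fold higher in EGC than in PGC E13.5 male (3.77 ± 0.20, adjusted p 6.66e-14), 0.66 log2 units higher in ESC than in ICM (lost without either ESC array or ICM replicate 3, 0.50 to 0.68, and with arrays centred, 0.59) and 3.94-fold lower in MEF than in SGM (-1.98 ± 0.16, adjusted p 2.12e-11). The gain in EGC exceeded that in ESC (-3.11 ± 0.30 for ESC minus ICM against EGC minus PGC E13.5 male, adjusted p 1.25e-08). The pluripotent mean of Gsta4 was 2.60-fold above the somatic mean (1.38 ± 0.09, adjusted p 3.55e-13), or 0.81 log2 units above it without NSC and HSC (adjusted p 9.35e-08), although SGM lay above PGC E11.5 by 1.13.

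Gsto1 moved against Gsta4 in fibroblasts. Gsto1 was 12.999 to 13.44 (median 13.20) in MEF, 11.67, 11.32 and 11.52 in EGC, 10.58 and 10.71 in ESC, 11.74, 11.97 and 11.21 in ICM, 9.60 and 8.77 in NSC and 10.61 and 10.69 in HSC. MEF arrays exceeded all others, NSC arrays lay below the other somatic arrays, and ESC lay below ICM. Gsto1 was 4.37-fold higher in MEF than in SGM (2.13 ± 0.17, adjusted p 2.89e-11), 1.99-fold lower in ESC than in ICM (-0.99 ± 0.24, adjusted p 0.00312) and 5.46-fold lower in NSC than in the other somatic groups (-2.45 ± 0.21, adjusted p 7.66e-11). It was 1.53 log2 units higher in EGC than in PGC E13.5 male, so the ESC and EGC pairs differed by -2.52 ± 0.33 (adjusted p 1.57e-06). Its HSC difference (-0.49) passed no test without either HSC array or NSC replicate 1 (-0.35 to -0.53) and became 0.01 with quantile normalization, the only change of direction among 291 member calls under other scalings.

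Several transferases were lower in the cultured member of a pair. Gstk1, a mitochondrial and peroxisomal enzyme, was 10.30, 9.81, 9.88 and 9.81 in SGM and 7.48 to 8.10 (median 7.79) in MEF, without overlap. Gstz1, which also serves tyrosine breakdown as maleylacetoacetate isomerase, was 8.19, 7.83 and 7.77 in PGC E13.5 male and 6.39, 5.86 and 6.12 in EGC. Gstm6 was 8.00, 8.30 and 8.84 in PGC E13.5 male and 7.17, 7.45 and 7.19 in EGC. In each case the cultured arrays lay below the fresh ones. Gstk1 was 4.50-fold lower in MEF than in SGM (-2.17 ± 0.15, adjusted p 5.43e-13), and Gstz1 was lower by a log2 difference of -1.81 ± 0.18 (adjusted p 1.56e-08) and Gstm6 2.16-fold lower (-1.11 ± 0.18, adjusted p 2.08e-05) in EGC than in PGC E13.5 male. Gstm5 was 11.02, 11.06 and 10.89 in EGC and 11.42 to 12.03 (median 11.57) in MEF, below all arrays of the respective fresh group. It was 2.24-fold lower in EGC (-1.17 ± 0.18, adjusted p 1.32e-05) and 2.13-fold lower in MEF (-1.09 ± 0.14, adjusted p 2.5e-07). In the ESC pair Gstm5 was higher by 0.70 (lost without ESC replicate 2 at 0.64 or ICM replicate 3 at 0.58), and the pairs differed for Gstz1 by 1.97 ± 0.28 (adjusted p 4.33e-06) and for Gstm5 by 1.87 ± 0.27 (adjusted p 8.36e-06). The other Gstm5 probe sets gave 0.16, 0.40 and 0.23 in the ESC pair, with only the 0.40 called. In the EGC pair they gave -1.22, -0.22 and -0.35, with only the -1.22 called.

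Gstp1 was 10.45, 10.35 and 10.83 in ICM and 9.04 and 9.33 in ESC. The groups did not overlap and Gstp1 was 2.57-fold lower in ESC (-1.36 ± 0.20, adjusted p 1.2e-05), while in EGC (8.84, 8.54 and 8.87) it was 0.74 above PGC E13.5 male. Gstt1, a theta-class enzyme that handles small halogenated compounds, was 9.74 and 9.99 in NSC, 8.53, 8.14, 8.36 and 8.61 in SGM, 7.85 to 8.30 (median 8.14) in MEF and 7.99 and 8.06 in HSC. All pluripotent arrays of Gstt1 lay between 7.24 and 7.88. NSC stood apart from every other array, and pluripotent arrays overlapped only the lowest MEF array. Gstt1 was 3.20-fold higher in NSC than in the other somatic groups (1.68 ± 0.11, adjusted p 2.45e-13) and 2.08-fold lower in the pluripotent than in the somatic mean (-1.06 ± 0.05, adjusted p 6.24e-16), or lower by a log2 difference of -0.71 without NSC and HSC. Gstm5 in pluripotent cells was 9.78, 9.82 and 9.44 in ICM and 10.32 and 10.44 in ESC, against 12.18 and 12.36 in NSC and 11.89 and 11.94 in HSC. Its pluripotent mean was 2.30-fold lower than the somatic mean (-1.20 ± 0.09, adjusted p 8.41e-13), with the E13.5 germ cells inside the somatic range. The other probe sets of Gstm5 gave -1.89, -0.05 and -0.10 there, and the -0.05 and -0.10 were not called. Readings of the mu class are uncertain, because the brightest Gstm1, Gstm3 and Gstm5 probe sets are of a type that can detect closely related genes. In NSC minus other somatic the Gstm1 sets were opposed, at 0.45 on the brightest and -0.33 on the other, both called. Gstm5 sets there gave 0.79, 0.21 and -0.38, all called, and the brightest 0.18, not called.

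**Figure D3:**
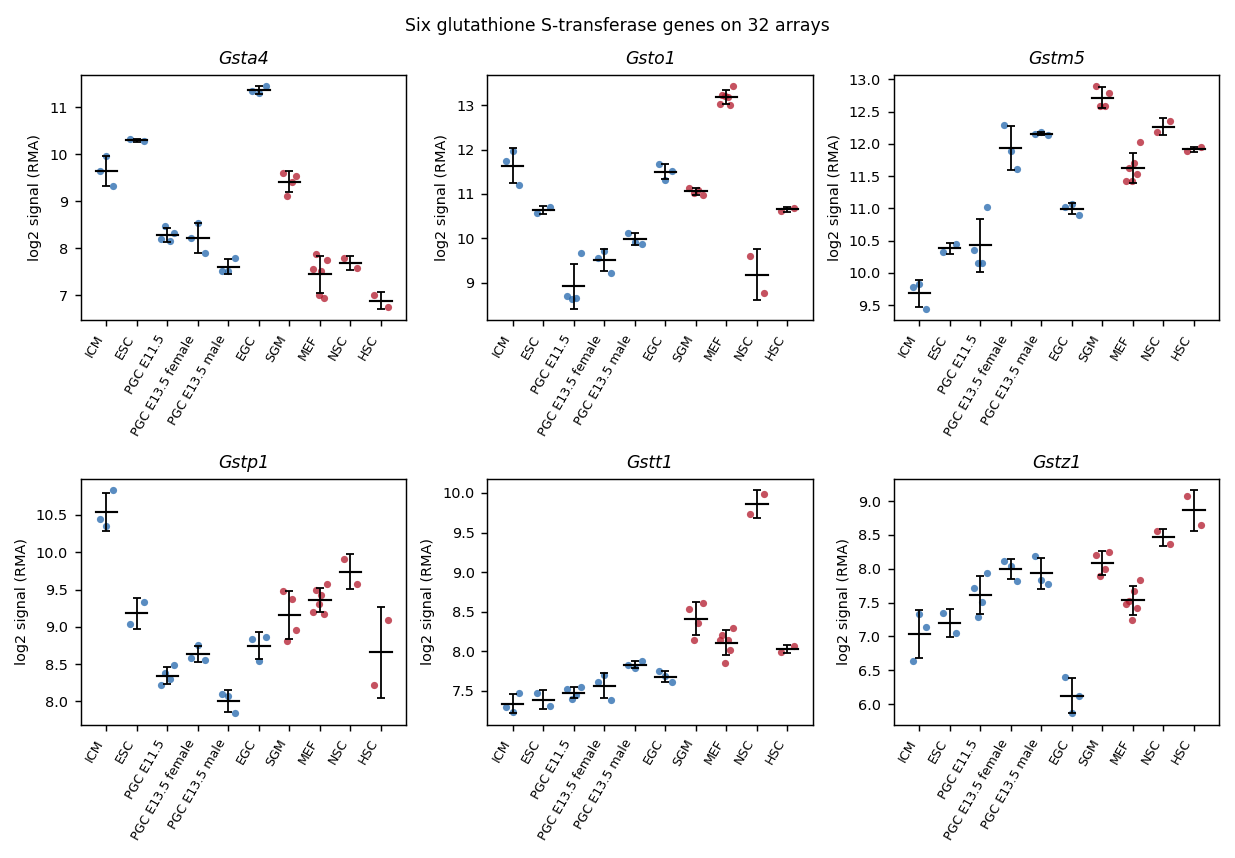
Log2 signal of the transferases Gsta4, Gsto1, Gstm5, Gstp1, Gstt1 and Gstz1 on each of the 32 arrays, by group. Points are arrays, blue for pluripotent and red for somatic groups, the bar is the group mean and the whisker 1 SD. Gsta4 is highest in EGC, Gsto1 in MEF, Gstp1 in ICM and Gstt1 in NSC.

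Among glutathione peroxidases, Gpx7, a peroxidase of the endoplasmic reticulum, marked SGM and MEF. Gpx7 was 8.59, 8.24, 8.43 and 8.94 in SGM, 8.24 to 9.05 (median 8.83) in MEF, 6.72, 6.41, 6.58 and 6.91 in PGC E11.5, 6.68 and 6.61 in NSC and 6.15 and 6.57 in HSC. SGM and MEF overlapped each other and no array of the other groups named. Gpx7 was 3.73-fold lower in PGC E11.5 than in SGM (-1.90 ± 0.16, adjusted p 5.78e-11) and 2.37-fold lower in NSC than in the other somatic groups (-1.24 ± 0.17, adjusted p 6.84e-07), a mean that includes the equally low HSC. Fibroblast genes moved with it: the summed log2 level of 7 of them was 78.2 to 80.8 over SGM arrays, 89.8 to 91.9 over MEF and 55.1 to 57.9 over PGC E11.5, and their part was not tested. Gpx4, which reduces lipid hydroperoxides in membranes, was 8.94 and 8.54 in ESC and 8.20, 8.14 and 7.77 in ICM and was higher in ESC by 0.71, a call lost without ESC replicate 1 (0.51) or ICM replicate 3 (0.58). Gpx1, Gpx2, Gpx3 and Gpx5 each varied by less than 1 log2 unit between groups.

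The superoxide dismutases differed in their pattern. Sod2, the mitochondrial enzyme, was 11.87, 12.12 and 11.28 in ICM, 10.37 and 10.47 in ESC, 10.46, 10.50, 10.34 and 10.36 in PGC E11.5, 10.30, 10.09 and 9.92 in PGC E13.5 female, then 10.02, 10.22 and 9.89 in PGC E13.5 male and 10.24, 9.74 and 10.28 in EGC. Sod2 in somatic groups was 8.70, 8.82, 8.82 and 8.96 in SGM, 9.28 to 9.67 (median 9.48) in MEF, 9.76 and 9.27 in NSC and 8.98 and 9.32 in HSC. Pluripotent arrays lay above somatic ones apart from 1 EGC array, which fell just below the higher NSC array. Sod2 was 2.35-fold higher in the pluripotent mean (1.23 ± 0.08, adjusted p 1.05e-13), 3.01-fold higher in PGC E11.5 than in SGM (1.59 ± 0.15, adjusted p 3.87e-10) and 2.52-fold lower in ESC than in ICM (-1.33 ± 0.19, adjusted p 4.93e-06). Some trophectoderm genes were also higher in ICM than in ESC: Krt18 was 9.99 and 6.95, Eomes 9.27 and 5.67 and Krt8 10.63 and 8.90. Others differed less, with Cdx2 at 6.17 and 5.91, Tfap2a at 6.49 and 5.94 and Hand1 at 8.25 and 8.20. The mean of the 6 genes ran from 7.33 to 9.05 over ICM arrays. The part of these genes in Sod2 was not tested. Sod1, the cytosolic enzyme, was 11.86, 11.93, 11.84 and 11.78 in PGC E11.5, 12.41 to 12.55 in PGC E13.5 female against 12.54, 12.40 and 12.30 in PGC E13.5 male. It was higher at E13.5 in every array, by 1.56-fold in females (0.64 ± 0.14, adjusted p 0.00112) and by 0.56 log2 units in males. Catalase (Cat) was flat on its brightest probe set. Its other probe set gave -1.75 for PGC E11.5 minus SGM and 1.11 for EGC minus PGC E13.5 male, and the 2 sets opposed each other in the comparison of the culture pairs (0.43 and -1.27).

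Peroxiredoxins reduce peroxides with electrons from thioredoxin. Prdx3, the mitochondrial form, was 10.76, 10.75 and 10.86 in EGC, 8.93, 9.30 and 9.07 in PGC E13.5 male, 9.29 and 9.36 in ESC and 10.01, 10.39 and 10.07 in ICM. EGC lay above its fresh counterpart and ESC below its own. Prdx3 was 1.69 ± 0.25 log2 units higher in EGC and differed by -0.83 in ESC (lost without either ESC array or ICM replicate 2, -0.71 to -0.87), so the pairs differed by -2.52 ± 0.38 (adjusted p 1.05e-05). Prdx4, the form of the endoplasmic reticulum, was 10.02, 10.30, 9.94 and 10.06 in PGC E11.5, 10.88, 10.73 and 10.70 in PGC E13.5 female against 10.29, 10.13 and 9.85 in PGC E13.5 male. Only the females stood above E11.5, by 1.62-fold (0.69 ± 0.11, adjusted p 3.85e-05), and they exceeded males by 1.61-fold (0.68 ± 0.12, adjusted p 0.000436). Prdx4 lies on the X chromosome, and the PGC E11.5 arrays held both sexes. The part of X chromosome number in these differences was not tested. On its brightest probe set Prdx2, a cytosolic form abundant in red cells, was highest in SGM (13.38, 13.26, 13.37 and 13.49) and lowest in HSC (11.05 and 11.88). The erythroid genes also stood highest in SGM, and their part was not tested. Another Prdx2 set, of mean 9.13, was highest in ESC (10.24), with SGM at 9.80. The HSC difference was -1.53 on the brightest set, called, and -0.37 on that set, not called (adjusted p 0.0586). A dim set of mean 3.87 gave 0.37 there, called. In PGC E13.5 male minus PGC E11.5 the dim set gave 0.31 and the set of mean 9.13 gave -0.59, both called.

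In the thioredoxin system Txnrd1, the cytosolic reductase, followed stage and culture. Txnrd1 was 10.66, 10.78, 10.66 and 10.29 in PGC E11.5, 9.22, 9.53 and 9.62 in PGC E13.5 female, then 8.89, 9.58 and 9.33 in PGC E13.5 male and 10.44, 10.73 and 10.83 in EGC. It was 11.37 and 11.54 in ESC, 10.83, 10.74 and 10.78 in ICM, 9.91, 10.11, 10.14 and 9.73 in SGM, 10.47 to 10.88 (median 10.64) in MEF, 11.12 and 10.84 in NSC and 10.02 and 10.60 in HSC. E13.5 germ cells of both sexes lay below all other arrays, and each cultured group lay above its fresh counterpart. Txnrd1 was 2.21-fold lower in females (-1.14 ± 0.16, adjusted p 3.89e-06) and 2.51-fold lower in males (-1.33 ± 0.16, adjusted p 4.22e-07) at E13.5 than at E11.5. It was higher by 1.40 ± 0.17 in EGC (adjusted p 2.47e-07), by 0.71 ± 0.13 in MEF (adjusted p 4.78e-05) and by 0.67 ± 0.19 in ESC (adjusted p 0.00847), the last lost without ESC replicate 2 (0.59, adjusted p 0.093).

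Txnrd2, the mitochondrial reductase, was 8.41 and 8.24 in HSC, 6.85, 6.45, 6.84 and 6.75 in SGM, 5.63 to 6.00 (median 5.85) in MEF and 7.42 and 7.87 in NSC. HSC arrays were the highest, and Txnrd2 was 3.04-fold above the other somatic groups (1.60 ± 0.16, adjusted p 1.5e-09). Txnip, an inhibitor of thioredoxin that also restrains glucose uptake, was 9.52 and 9.95 in HSC, 7.75, 8.15, 7.80 and 8.04 in SGM, 9.01 to 9.38 (median 9.27) in MEF and 7.95 and 7.89 in NSC. It was again highest in HSC, 2.59-fold above the other somatic groups (1.37 ± 0.13, adjusted p 2.59e-10). Between the sexes Txnip was 9.10, 8.85 and 8.74 in females and 8.52, 8.37 and 8.34 in males, a difference of 0.48 ± 0.13 (adjusted p 0.0203). It passed no test without female replicate 1 (0.38), male replicate 2 (0.46) or male replicate 3 (0.45). The other Txnip probe set gave -0.32, not called when all probe sets were fitted (adjusted p 0.052). With plain probe sets only, its adjusted p was 0.0454. In EGC minus PGC E13.5 male the Txnip probe sets were opposed and both called (0.65 and -0.28). Txn2, the mitochondrial thioredoxin, was 10.19, 10.08, 10.15 and 10.81 in PGC E11.5 and 11.09, 10.81 and 10.97 in PGC E13.5 male. They touched at replicate 4, and the difference was 1.56-fold (0.65 ± 0.14, adjusted p 0.00051), or 0.81 without that array.

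The remaining thioredoxin-like members come in by symbol, and not all are known antioxidants. Txndc5, a protein disulphide isomerase, was 10.38 to 10.95 (median 10.73) in MEF and 9.34, 9.23, 9.33 and 9.33 in SGM, without overlap, and was 2.63-fold higher in MEF (1.39 ± 0.10, adjusted p 1.5e-12). Txndc17, a cytosolic thioredoxin-like protein, was 8.44 and 8.16 in NSC, 8.64 and 8.68 in HSC, 10.89, 10.82, 10.79 and 10.99 in SGM and 10.89 to 11.48 (median 11.26) in MEF. Both adult groups lay over 2 log2 units under the embryonic somatic groups, and Txndc17 was 3.86-fold lower in NSC than in the other somatic groups (-1.95 ± 0.15, adjusted p 1.35e-11). Txndc16 was 8.30, 9.26 and 6.49 in ICM, 7.30 and 6.86 in ESC and 7.08 to 7.98 in the other pluripotent arrays, against 8.37, 8.43, 8.34 and 8.42 in SGM, 8.79 to 9.10 (median 8.88) in MEF, 9.13 and 9.61 in NSC and 9.15 and 7.87 in HSC. The 3 ICM arrays spanned almost the whole range of the gene. The pluripotent mean of Txndc16 was 2.35-fold lower (-1.23 ± 0.17, adjusted p 4.09e-07). Txnl4a, a spliceosome component rather than a redox enzyme, was 11.25, 10.97, 11.21 and 11.21 in PGC E11.5, 10.34, 10.39 and 10.37 in PGC E13.5 female against 11.19, 11.10 and 11.06 in PGC E13.5 male. Among germ cells the females stood low, 1.73-fold under E11.5 (-0.79 ± 0.13, adjusted p 2.72e-05) and 1.68-fold under males (-0.75 ± 0.14, adjusted p 0.000494).

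Other members of the thioredoxin group moved less or in single groups. Txn1, the cytosolic thioredoxin, was 13.56 and 13.30 in NSC, above all other arrays, and was higher there by 0.98. Txndc12, a disulphide isomerase family member, was 8.71, 8.42, 8.53 and 8.65 in SGM and 7.65, 7.68, 7.67 and 7.90 in PGC E11.5, and was lower in the germ cells by a log2 difference of -0.85. Txnl1, a thioredoxin-like protein linked to the proteasome, was highest in EGC (9.48, 9.64 and 9.74) but passed no test against PGC E13.5 male. Txndc9 and Txnrd3 ranged over 0.71 and 0.65 log2 units. In the transferases not yet described, Gstt2 was 8.59, 8.34 and 8.27 in EGC, above PGC E13.5 male (7.49, 7.37 and 7.52) by 0.94. Gstm2 was called in 1 of 12 comparisons on its brightest probe set. Its other set was called in more of them. It gave -0.86 in EGC minus PGC E13.5 male (adjusted p 0.000309) and -0.98 in NSC (adjusted p 9.18e-06). In E13.5 males it gave 0.71 against E11.5 (adjusted p 0.000942), and females minus males was -0.64 (adjusted p 0.0177). Gsta1 and Gsta3 did not pass a filter on dim genes, which 48 members passed.

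Hmox1, which degrades haem, and Nqo1, a quinone reductase, are textbook NRF2 targets. Hmox1 group means covered 0.79 log2 units. Nqo1 was 7.01, 6.96 and 7.26 in EGC and 6.55, 6.49 and 6.29 in PGC E13.5 male, and was higher in EGC by 0.63. The HSC value of the brighter set was -0.70 without HSC replicate 1 and -0.20 (adjusted p 0.26) without replicate 2. In NSC and HSC the brighter Nqo1 probe set was lower (-0.67 and -0.45) and the dimmer one higher (0.42 and 0.31), all called, so no direction is given for it there.

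The culture pairs were set side by side to see which members went the same way in ESC over ICM, EGC over PGC E13.5 male and MEF over SGM. Mt1 and Txnrd1 were called higher in all 3 pairs (Txnrd1 in 2 of them without ESC replicate 2), and 0 members were called lower in all 3. Of all 8251 genes, 82 (0.994%) were called higher and 70 (0.848%) lower in all 3. Averaged over the pairs, Mt1 was 4.03-fold higher (2.01 ± 0.17, adjusted p 2.73e-10), Mt2 2.55-fold (1.35 ± 0.22, adjusted p 1.18e-05) and Txnrd1 1.90-fold (0.93 ± 0.09, adjusted p 8.49e-09). Gstk1 was 2.06-fold lower (-1.05 ± 0.10, adjusted p 5.3e-09), Gstz1 1.66-fold (-0.73 ± 0.10, adjusted p 1.79e-06) and Txnrd2 1.58-fold (-0.66 ± 0.10, adjusted p 2.63e-06). Called in opposite directions by different pairs were 12 members: Gclm, Gsta4, Gstm1, Gstm5, Gsto1, Gstp1, Gstt2, Prdx2, Prdx3, Sod1, Sod2 and Txndc9. Called in none were 13, among them Gsr, Cat and Txn2. These counts are 24% and 26% of members, against 15.8% and 29.3% of all genes. They rest on the brightest probe sets. No other set of Gstm1 or Gstm5 was called in opposite directions by different pairs. The other set of Cat gave 1.11 in the EGC pair (adjusted p 4.72e-06) and -0.41 in the MEF pair (adjusted p 0.00876). That of Gstm2, also among the 13, gave -0.86 in the EGC pair (adjusted p 0.000309). Cultured and fresh cells of a pair also differ in stage, sort or medium, and ESC and ICM differ in strain and sex as well. Culture cannot be told apart from these.

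**Figure D4:**
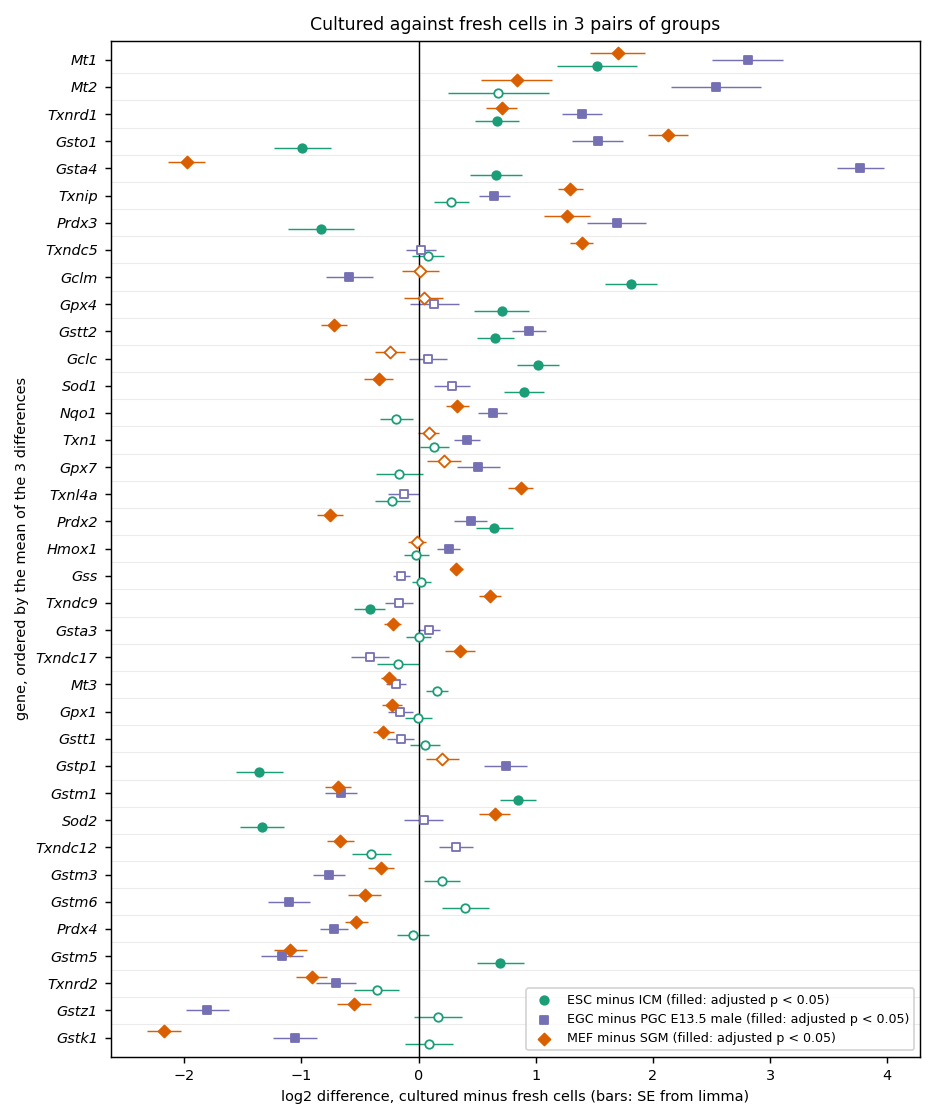
Log2 difference, cultured minus fresh, for the 37 members called in at least 1 of 3 culture pairs, with the SE of the fit as error bars and filled symbols for adjusted p under 0.05. Mt1 and Txnrd1 lie above 0 in all 3 pairs, whereas Gsta4 and Gclm go different ways.

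As a description over the 10 group means, with no test, Pearson's r was 0.79 for Mt1 with Mt2, 0.74 for Mt1 with Txnrd1, 0.90 for Gclm with Gpx4 and 0.79 for Gsta4 with Mt2. All points share the same arrays and normalization.

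Related genes outside the set were counted from 7 lists. Of 10 measured NADPH-supplying genes, 1 was higher and 7 lower in PGC E11.5 than in SGM, with Idh1 (-1.61), Me1 (-1.51) and Idh2 (-1.27) lower and Mthfd2 (0.76) higher, where 23.2% of all genes were called higher and 26.9% lower. In NSC 7 were higher and 1 lower (all genes 28.1% and 30.8%), including Tkt (1.80) and Me1 (1.71) above and Nnt (-1.90) below the other somatic groups, and in HSC Me1 (-3.84) and Idh1 (-2.51) were among 5 that were lower, with 1 higher (all genes 27.6% lower and 36.8% higher). Of 13 measured NRF2, FOXO and metal regulators, 7 were higher and 0 lower in MEF than in SGM (all genes 22.2% and 27.6%, also for the MEF counts that follow), among them Sqstm1 (1.55), Mafg (1.27) and Nfe2l2, the gene of NRF2 (0.82). Nfe2l2 differed by 1.25 in EGC minus PGC E13.5 male, and by -0.97 in female and -1.28 in male E13.5 germ cells against E11.5. These E13.5 differences share the E11.5 arrays with those of Txnrd1. Of 10 glutaredoxins and other thiol reductases, 6 were higher and 3 lower in MEF than in SGM. Of 7 genes of the selenoprotein machinery, which serves the selenoenzymes among the Gpx and Txnrd genes (not every Gpx is one), 4 were higher and 0 lower in MEF than in SGM. Iron, haem and metal genes (10 measured) had 5 higher and 0 lower at E13.5 in females (all genes 16.3% and 15.2%), then 5 and 2 in males (31.7% and 20.7%). Of 7 oxidant sources 1 was higher and 5 lower in the pluripotent mean (all genes 29.1% and 34.9%). Of 5 genes of glutathione supply 3 were higher and 0 lower in EGC than in PGC E13.5 male (all genes 14.8% and 15.9%).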

How the data were processed

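RNA was profiled on Affymetrix arrays after RNeasy purification with DNase and biotin labelling over 2 rounds of in vitro transcription, per the labels. Deposited values are log2 signals of probe sets, which the authors summarised with RMA per the submitters' processing notes (no version given). Arrays have no read depth, and their number limits the precision. The highest value on a MEF array was 17.3 to 17.7, against at most 15.9 in the other groups, so a further step on the MEF arrays, not given in the sources used here, is possible and bears on MEF differences. The table has 34 columns. ESC replicate 3 and PGC E11.5 replicate 5 equal the means of the other replicates of their group (tolerance 1e-06) and were left out, leaving 32 arrays. The planned design counted them, and using all 34 columns is an alternative.

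Genes were named by the platform annotation, each read from its brightest probe set. Group means of 10 groups were estimated in limma (version 3.58.1, R 4.3.3, lmFit with eBayes, 22 residual degrees of freedom, median residual SD 0.161), and p-values were two-sided and Benjamini-Hochberg adjusted over 8251 genes, with calls under 0.05. Errors of differences are SE. The fit was tested on simulated data. Genes described are, per comparison, the 3 largest rises and falls among called members, members whose probe sets oppose each other, and further members given to complete each role. Members, the related lists and the markers were chosen with earlier results of these data known. Promoter sequences come from RefSeq (GRCm38.p6), which held 42 of 50 members. Alternatives were quantile normalization, arrays centred on their median, means over probe sets, plain probe sets only, a filter on dim genes (under the 30th percentile), fitting only the compared groups, all 34 columns, a replicate block and leaving out each array. Replicate numbers were not taken as pairs: residuals of arrays with the same number correlated between -0.566 and 0.521, and among groups compared alone all exceeded 0.1 only for ESC with ICM (0.161 and 0.176, 2 numbers). For PGC E11.5 with SGM, of the same region and stage, they were -0.353, 0.521, 0.165 and 0.332, so a pairing there is possible.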

Additional observations from a re-analysis of the deposited data

Results flagged for a closer look

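Single arrays lay far from the rest of their group in 11 of 150 checks over groups of 4 to 6 arrays, where chance gives about 1 in 20. PGC E11.5 replicate 4 accounted for 5 of them: Gpx4 was 8.33 (others 7.71 to 7.80), Gstk1 9.26 (8.64 to 8.73), Gsto1 9.68 (8.62 to 8.69), Txn2 10.81 (10.08 to 10.19) and Txndc12 7.90 (7.65 to 7.68). PGC E11.5 replicate 2 was low in Txnl4a at 10.97 (11.21 to 11.25). SGM replicate 1 was high in Gstk1 at 10.30 (9.81 to 9.88), and SGM replicate 2 was low in Txndc5 at 9.23 (9.33 to 9.34) and high in Txnl4a at 10.51 (10.09 to 10.13). MEF replicate 6 was high in Gstt2 at 7.37 (7.05 to 7.13) and in Mt1 at 10.68 (9.98 to 10.20).

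The ESC minus ICM difference and the EGC minus PGC E13.5 male difference were themselves unlike by limma's test in 22 members. The first exceeded the second for Gclm (2.40), Gstz1 (1.97), Gstm5 (1.87), Gstm1 (1.51), Gstm6 (1.51), Gstk1 (1.14), Gstm3 (0.97), Gclc (0.94), Prdx4 (0.68), Sod1 (0.61), Cat (0.43) and Mt3 (0.35). It fell short for Gsta4 (-3.11), Prdx3 (-2.52), Gsto1 (-2.52), Gstp1 (-2.10), Mt2 (-1.86), Sod2 (-1.38), Mt1 (-1.29), Nqo1 (-0.82), Txnrd1 (-0.72) and Txndc12 (-0.72). Without single arrays, 7 of these passed no test. For Mt1 these were ICM replicate 2 (-0.80, adjusted p 0.117), PGC E13.5 male replicate 1, EGC replicate 1 and either ESC array. For Mt2 they were ICM replicate 2, ESC replicate 1 and male replicate 1 (-1.37), and for Txnrd1 male replicate 1 (-0.54), ESC replicate 1 and EGC replicates 2 and 3. Txndc12 was lost without ESC replicate 1 (-0.53), and Cat (0.34 to 0.40), Mt3 (0.29 to 0.35) and Sod1 (0.44 to 0.69) without any of several arrays. Mt2 and Txnrd1 also passed no test with quantile normalization, under which Sod1 was 1.22 and Mt3 0.76. With arrays centred, Cat (0.31, adjusted p 0.0729), Mt3 (0.23, adjusted p 0.125) and Sod1 (0.49, adjusted p 0.139) passed no test.

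The E13.5 sexes differed in 5 members: Prdx4 (0.68, on the X chromosome), Gclc (0.66), Gstp1 (0.63) and Txnip (0.48) were higher in females and Txnl4a (-0.75) was lower. Among leave-outs, Prdx4 and Txnl4a kept their calls, and the calls of Gclc, Gstp1 and Txnip were each lost without some single arrays, by limma's adjusted p.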

How the results depend on the processing

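Among the 3 largest rises and falls of each comparison no difference changed sign under any alternative run, and of the recomputed counts of members 17 moved and 459 did not move by more than 1.5 times. With quantile normalization the members lower in EGC than in PGC E13.5 male went from 9 to 18 and those lower in E13.5 females than in males from 1 to 2, or to 3 with plain probe sets. With arrays centred, members higher in HSC went from 20 to 12, and fitting only the compared groups took those higher in ESC than in ICM from 11 to 5. Centring also moved the median difference over all genes in the comparison of the culture pairs from 0.11 to -0.01.

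Leaving out each array in turn, members higher in E13.5 females than at E11.5 ran from 4 to 16 (4 without female replicate 2, 5 without female replicate 1 or PGC E11.5 replicate 2, 7 without PGC E11.5 replicate 3), and members higher in females than in males from 1 to 4 (1 without male replicate 3, 2 without male replicate 2 or female replicate 1). Members higher in ESC than in ICM ran from 6 (without ESC replicate 2) to 11 and lower from 3 (without ESC replicate 1) to 6. The comparison of the culture pairs had 6 (without ESC replicate 1) to 12 lower, NSC 8 (without NSC replicate 1) to 15 higher and HSC 12 (without HSC replicate 1) to 19 higher. Where ESC, NSC or HSC keep 1 array, it is assumed to vary like the other groups. Of 291 member calls, 44 were lost with another scaling. The causes were not tested.

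With the replicate number as a block, Mt2 in PGC E13.5 male minus PGC E11.5 (-0.74, adjusted p 0.0776) lost its call and no other named difference did. No table of detection is used here, so dim genes have no stated background.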
